A study of Mus musculus with 6 samples.

Results

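The endothelin pathway of jaw patterning was followed through 9 genes, *Edn1*, *Ece1*, *Ednra*, *Mef2c*, *Hand2*, *Hand1*, *Gsc*, *Nkx3-2* and *Barx1*. They were picked by symbol as the signal, its converting enzyme, its receptor and the arch genes that act with it or below it, and they are 9 of the 24421 gene symbols of the deposited table. RNA of whole mouse heads at E9.0 was sequenced from 3 WT libraries, labelled SnrpB +/+, and 3 *Snrpb* ncc+/- mutant libraries, labelled SnrpB+/- and called Het here. Each library came from 2 pooled heads of embryos with similar somite numbers, taken from different litters. In the mutants, 1 copy of *Snrpb*, which encodes a core protein of the spliceosome, carries loxP sites and is deleted by Wnt1-Cre2, a transgene active in neural crest cells and the neural tube. Surface ectoderm, endoderm, arch mesoderm, endothelium and heart muscle of the same embryos keep both copies. The labels give CD1 and C57BL/6 as background for both groups, their age entry mixes postnatal and embryonic terms, and they do not say whether the WT heads carried the Cre transgene or a loxP allele. Nothing in the labels says which litters went into a replicate, and *P*-values measure the spread between these pools.

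Endothelin 1 is made as a longer precursor by the ectoderm, endoderm and core mesoderm of the pharyngeal arches, and the membrane protease endothelin converting enzyme 1 cuts it to the active peptide. The peptide binds the endothelin receptor type A on the neural crest cells that fill the arch, and signaling through G proteins of the Gq and G11 class turns on *Dlx5* and *Dlx6*, and through them *Hand2*, in the part of the arch that makes the lower jaw. Mice without the ligand or the receptor form upper jaw structures in place of the lower jaw. In the mutants studied here, the signal is therefore made mostly by cells that keep both copies of *Snrpb*, and it is received by cells that lost 1.

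Between 36378803 and 58946111 reads per WT library (median 37349643) and between 42398206 and 74909774 reads per mutant library (median 66455078) had been assigned to genes. Levels are given as CPM, which bring the counts of each library to the same total, after TMM. *Snrpb* itself stood at 430, 438 and 414 CPM in WT and 436, 412 and 430 CPM in Het (log2 fold change -0.0036, standard error, SE, 0.039, edgeR adjusted *P*=0.990), so that its level in whole heads does not check the labels. Markers of the brain summed to between 406 and 504 CPM per library and posterior *Hox* genes of the trunk to between 0.150 and 0.332 CPM, so that the labelled tissue, head, fits its markers. WT replicate 1 stood apart. Its mean Euclidean distance to the other libraries on log2 CPM was 53.0, against 41.8 to 48.0 for the others. For many, but not all, of the 9 genes and the other pathway genes named, the value without it is given too.

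All 9 genes had enough counts to be tested, and none passed the test between WT and mutant heads. The log2 fold change (Het over WT) was above 0 in 4 and below 0 in 5, with a median of -0.03 and a range from -0.54 in *Nkx3-2* to 0.38 in *Hand2*. Over all 15584 tested genes the median was 0.0004 and 50.2% were above 0. At an adjusted *P* under 0.05, edgeR called 0 of the 9, against 0.00642% of all tested genes. At an unadjusted *P* under 0.05, it called 0 of the 9 in either direction, against 8.43% of all genes. DESeq2 also called 0 of the 9 on either criterion (0.398% and 5.19% of all genes), although it gave no adjusted *P* for *Hand1*, *Gsc*, *Nkx3-2* and *Barx1*, whose counts are low. In none of the 9 did the 3 Het libraries lie on 1 side of the 3 WT libraries, a separation found in 15.2% of all tested genes. RNA of whole heads cannot tell fewer cells that express a gene from less RNA in each of them.

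**Figure D1:**
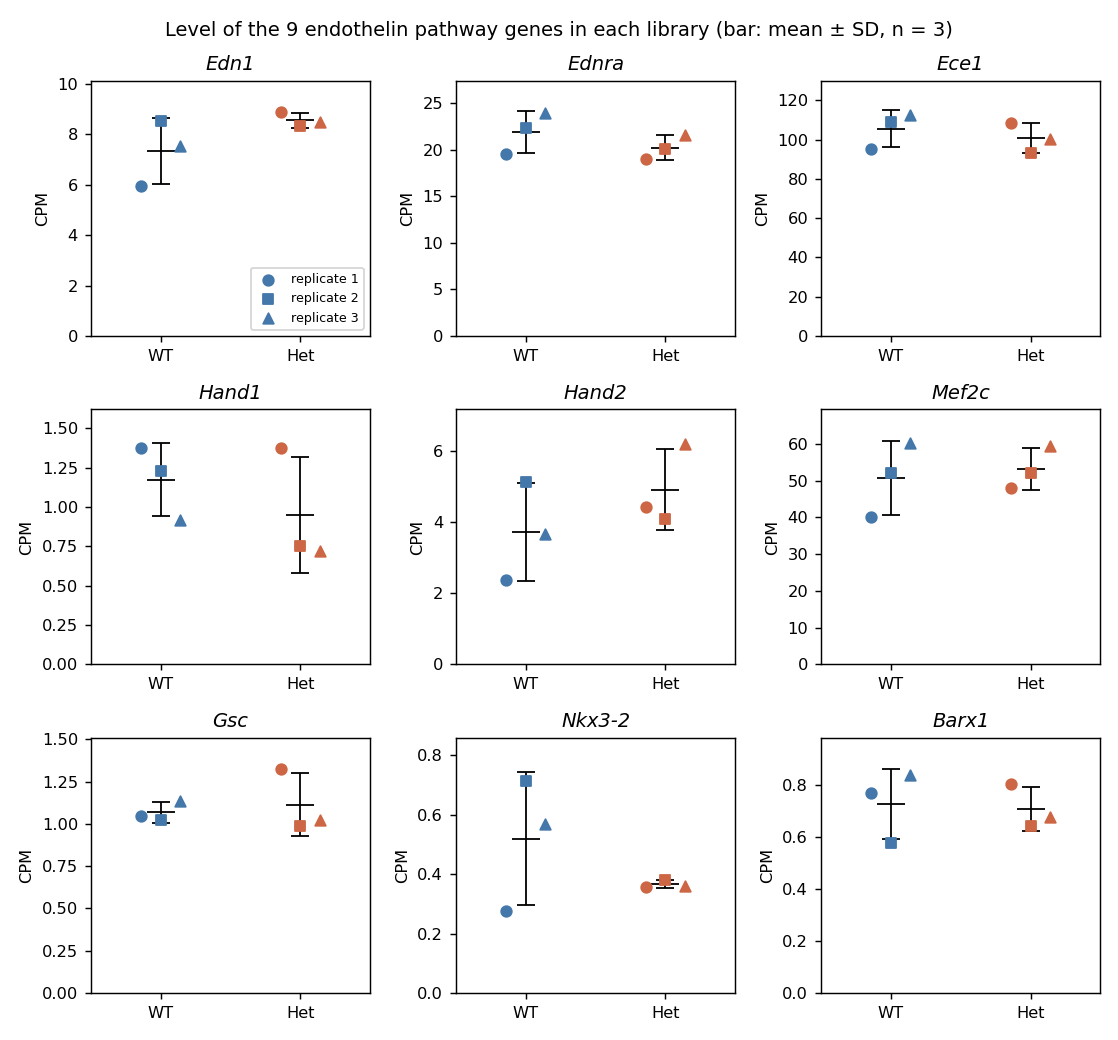
CPM of each of the 9 genes (y axes from 0) in the WT (blue) and Het (orange) libraries, with the replicate number as marker shape and bars for mean ± SD (*n*=3 per group). In every panel the range of the Het points meets the range of the WT points, and WT replicate 1 is the lowest point for *Edn1*, *Hand2*, *Mef2c* and *Nkx3-2*.

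The ligand gene *Edn1* lies on chromosome 13 of mm10 from 42301476 to 42307990, on the plus strand. Its level was 5.93, 8.51 and 7.54 CPM in WT replicates 1 to 3, and 8.88, 8.31 and 8.47 CPM in Het replicates 1 to 3. The Het libraries lay close together, within 1.07-fold, and WT replicate 2 fell among them, while WT replicates 1 and 3 were lower. The means were 7.33 ± 1.304 CPM in WT and 8.55 ± 0.29 CPM in Het (SD, *n*=3 each). The log2 fold change of 0.22 (SE 0.13) missed the threshold (edgeR adjusted *P*=0.683), and its 95% interval ran from 0.947-fold to 1.42-fold. The result leaned on WT replicate 1, without which it was 0.08 (SE 0.09, edgeR adjusted *P*=0.825).

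WT replicate 1 also had the lowest marker sums of the epithelia that make the ligand, although not every marker was low there. The 7 surface ectoderm markers summed to 288 CPM in it and to between 384 and 393 CPM in the other 5 libraries. Of these, 4 were lowest in WT replicate 1 (*Epcam*, *Cdh1*, *Krt8* and *Krt18*), while *Grhl3* was highest there and *Trp63* and *Tfap2c* lay between. The 7 pharyngeal endoderm markers summed to 24.9 CPM there and to between 34.7 and 36.5 CPM in the others, with 4 of the 7 lowest in it (*Foxe1*, *Nkx2-3*, *Hhex* and *Pax9*), *Foxa2* and *Nkx2-1* second highest in it and *Gcm2* at 0 in all WT libraries. Endothelial cells, a further source of *Edn1*, gave 274 CPM there over 10 markers and between 268 and 331 CPM in the others. The part of these markers in the level of *Edn1* was not tested.

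The stretch of 250 bases before the *Edn1* start (RefSeq, GRCm38.p6, chr13:42301226-42301475, plus strand) is shown because *Edn1* is where the pathway begins and because it holds, in capitals, the letters TAATTG, a core that homeodomain proteins such as the DLX factors can bind. The letters begin 227 bases before the start.

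Edn1: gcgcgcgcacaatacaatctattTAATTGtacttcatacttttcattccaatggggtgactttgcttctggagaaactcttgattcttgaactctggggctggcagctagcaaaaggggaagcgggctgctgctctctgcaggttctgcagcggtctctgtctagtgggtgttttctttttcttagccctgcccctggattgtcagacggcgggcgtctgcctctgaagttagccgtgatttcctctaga

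TAATTA and TAATTG were searched on both strands in the windows of the same length before every start in the table. Of the 9 genes, 8 had a window (13 windows in all), and 4 windows of 3 genes, *Edn1*, *Hand2* and *Mef2c*, held at least 1 of the 2 cores, against 11.3% of the 32851 windows of all genes. A match describes the letters only, and no binding was measured in these heads.

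*Ece1*, the converting enzyme, lies on chromosome 4 from 137862237 to 137965229, on the plus strand. It stood at 94.95, 109 and 112 CPM in WT and at 108, 93.3 and 100 CPM in Het. It had the smallest spread of the 9 genes, with 1.21-fold between the highest and the lowest library, WT replicate 3 and Het replicate 2. The means were 106 ± 9.30 CPM in WT and 101 ± 7.597 CPM in Het (SD, *n*=3 each), a log2 fold change of -0.07 (SE 0.08, edgeR adjusted *P*=0.845) with a 95% interval from 0.844-fold to 1.08-fold. Without WT replicate 1 the log2 fold change was -0.14 (SE 0.06, edgeR adjusted *P*=0.509). The enzyme is also abundant in endothelium. Per read of *Cdh5*, the cadherin of endothelial cells, it gave 2.595, 2.585 and 2.623 reads in WT and 3.09, 2.37 and 2.71 reads in Het. The WT libraries were alike in this ratio, and the Het libraries lay on both sides of them.

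*Ednra*, the receptor, lies on chromosome 8 from 77663031 to 77724464, on the minus strand. It stood at 19.5, 22.3 and 23.9 CPM in WT and at 18.99, 20.03 and 21.6 CPM in Het. The lowest library was Het replicate 1, WT replicate 1 was the next, and the 2 highest were WT libraries. The means were 21.9 ± 2.25 CPM in WT and 20.2 ± 1.33 CPM in Het (SD, *n*=3 each), a log2 fold change of -0.12 (SE 0.08, edgeR adjusted *P*=0.738) with a 95% interval from 0.808-fold to 1.05-fold. Without WT replicate 1 the log2 fold change was -0.19 (SE 0.07, edgeR adjusted *P*=0.435), in a comparison where 10% of all tested genes had an unadjusted *P* under 0.05.

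The receptor is carried by neural crest cells, and its values are set beside the markers of these cells. The 11 neural crest markers summed to 739, 880 and 925 CPM in WT and to 906, 827 and 931 CPM in Het. Most of each sum was *Crabp1*, between 390 and 512 CPM, and *Ets1* gave between 116 and 158 CPM, so that the sum mainly follows these genes. *Twist1*, a factor of the cranial mesenchyme, stood at 63.9, 70.3 and 83.3 CPM in WT and at 65.7, 64.8 and 76.3 CPM in Het (edgeR adjusted *P*=0.884). *Sox10*, a marker of migrating crest, stood at 16.7, 26.2 and 25.4 CPM in WT and at 27.9, 20.7 and 21.01 CPM in Het (edgeR adjusted *P*=0.991). *Ednra* and *Twist1* shared their highest library, WT replicate 3.

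Ligand and receptor were also compared within each library, where the scaling between libraries has no part. For each *Ednra* read there were 0.304, 0.381 and 0.315 *Edn1* reads in the WT libraries, and 0.468, 0.415 and 0.392 in the Het libraries. All Het libraries lay above all WT libraries, although the nearest pair, Het replicate 3 and WT replicate 2, differed little. The means were 0.333 ± 0.042 in WT and 0.425 ± 0.039 in Het (SD, *n*=3 each). This ratio was 1 of 4 computed, and it is set beside all other genes because its groups alone did not overlap. The others were *Hand2* to *Ednra*, and *Ece1* and *Mef2c* to *Cdh5*. Of the 15583 other tested genes, 10.8% also had a higher ratio to *Ednra* in every Het library than in any WT library and 0.558% a lower one, so that the separation is not particular to the ligand.

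*Mef2c* encodes a transcription factor that neural crest cells need for the response to endothelin, and heart and endothelium use it as well. The gene lies on chromosome 13 from 83504034 to 83667080, on the plus strand. It stood at 40.1, 52.0 and 60.2 CPM in WT and at 48.0, 52.0 and 59.4 CPM in Het. The groups covered almost the same range, with the lowest and the highest library both WT. The means were 50.8 ± 10.1 CPM in WT and 53.1 ± 5.80 CPM in Het (SD, *n*=3 each), a log2 fold change of 0.07 (SE 0.16, edgeR adjusted *P*=0.928) with a 95% interval from 0.803-fold to 1.36-fold. For each *Cdh5* read there were 1.10, 1.23 and 1.40 *Mef2c* reads in WT and 1.37, 1.32 and 1.61 in Het, again with overlap.

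*Hand2* encodes the basic helix-loop-helix factor that endothelin signaling turns on in the lower jaw part of the arch. The gene lies on chromosome 8 from 57320983 to 57324633, on the plus strand. The 250 bases before it (RefSeq, GRCm38.p6, chr8:57320733-57320982, plus strand) are shown because *Hand2* is a target of the pathway and because they hold both cores. Sequence farther from the start was not searched, and the letters do not show that the pathway acts here. TAATTA begins 175 bases before the start, and CAATTA, which is TAATTG on the other strand, 124 bases before it, both in capitals.

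Hand2: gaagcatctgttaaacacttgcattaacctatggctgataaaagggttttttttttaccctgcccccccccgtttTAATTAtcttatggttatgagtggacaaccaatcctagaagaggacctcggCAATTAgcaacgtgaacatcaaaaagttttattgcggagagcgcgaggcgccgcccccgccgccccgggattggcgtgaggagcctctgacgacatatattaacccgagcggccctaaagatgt

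*Hand2* stood at 2.39, 5.14 and 3.68 CPM in WT and at 4.43, 4.09 and 6.21 CPM in Het. WT replicate 1 was the lowest library and Het replicate 3 the highest, 2.6-fold apart, and the other 4 lay between 3.68 and 5.14 CPM with the genotypes mixed. The means were 3.74 ± 1.38 CPM in WT and 4.91 ± 1.14 CPM in Het (SD, *n*=3 each). The log2 fold change of 0.38 (SE 0.29) missed the threshold (edgeR adjusted *P*=0.754), with a 95% interval from 0.812-fold to 2.08-fold. It was 0.14 without WT replicate 1, 0.17 without Het replicate 3 and 0.70 without WT replicate 2 (edgeR adjusted *P*=0.888, 0.941 and 0.380).

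*Hand2* is also a gene of the embryonic heart, which lies against the arches at this stage. The 15 cardiac muscle markers summed to 18.0, 107 and 81.5 CPM in WT and to 48.5, 104 and 175 CPM in Het. All 15 had counts in every library, and 14 were tested, each with a log2 fold change above 0 (median 0.65) and none at an unadjusted *P* under 0.05 in edgeR or DESeq2. Leaving out 1 library moved that median to 0.25 (WT replicate 1), 0.23 (Het replicate 3), 0.99 (Het replicate 1) or 1.11 (WT replicate 2). *Myl7*, a myosin light chain of cardiomyocytes, stood at 0.659, 11.5 and 6.89 CPM in WT and at 3.74, 11.3 and 22.2 CPM in Het. *Tnnt2*, the cardiac troponin T, stood at 0.494, 6.90 and 4.19 CPM in WT and at 2.32, 6.83 and 10.3 CPM in Het. The cardiac sum and *Hand2* had the same lowest library, WT replicate 1, and the same highest, Het replicate 3. Het replicate 1 broke this order, with the next lowest cardiac sum and the third highest *Hand2*. The part of heart tissue in the level of *Hand2* was not tested.

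**Figure D2:**
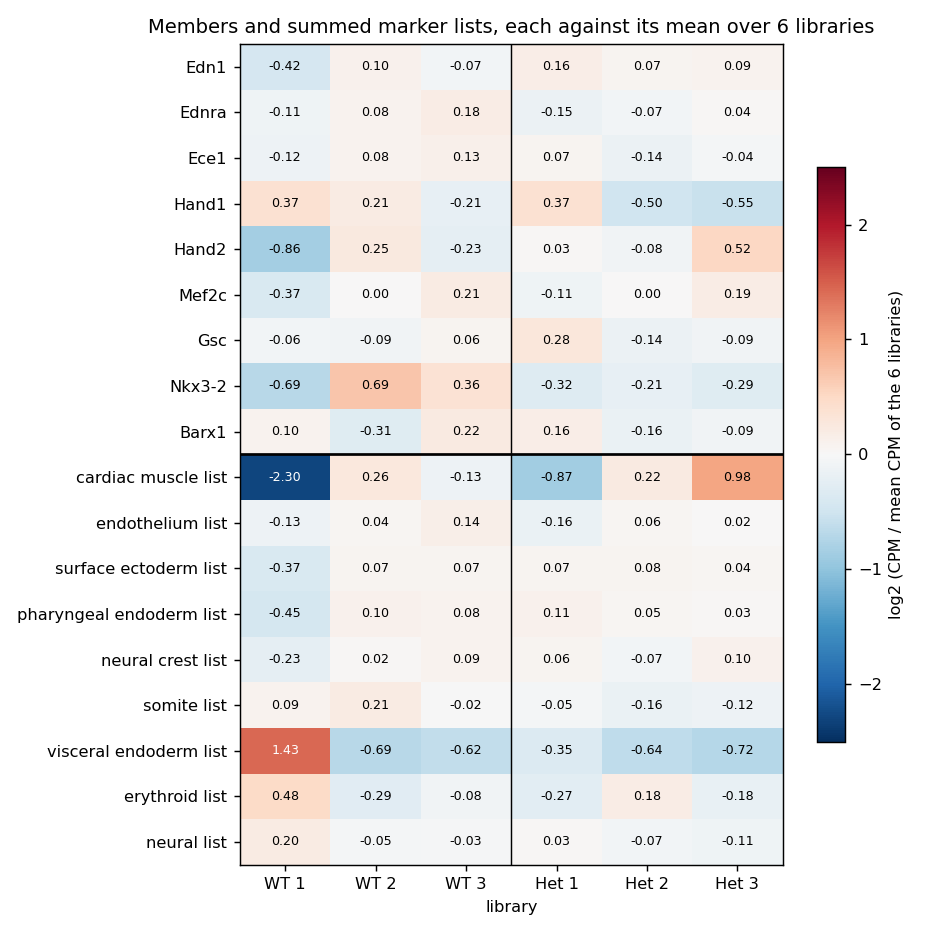
Colours and numbers give the log2 ratio of the CPM in each library (columns) to the mean CPM of the 6 libraries, for the 9 genes (upper rows) and for the summed CPM of each list of cell type markers (lower rows). *Hand2* and the cardiac list are both lowest in WT replicate 1 and highest in Het replicate 3, and the visceral endoderm list is highest in WT replicate 1.

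*Hand1*, a relative of *Hand2* expressed at the distal tip of the arch, lies on chromosome 11 from 57828705 to 57832818, on the minus strand. It stood at 1.37, 1.23 and 0.919 CPM in WT and at 1.37, 0.750 and 0.722 CPM in Het. Het replicate 1 was as high as the highest WT library, and the other Het libraries were the lowest of the 6. The means were 1.17 ± 0.23 CPM in WT and 0.948 ± 0.37 CPM in Het (SD, *n*=3 each), a log2 fold change of -0.34 (SE 0.29, edgeR adjusted *P*=0.777) with a 95% interval from 0.501-fold to 1.24-fold. Without Het replicate 1 the log2 fold change was -0.67 (SE 0.24, edgeR adjusted *P*=0.675).

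*Hand1* is also known in heart and in extraembryonic membranes, and its values are set beside both marker lists. Its 2 highest libraries, Het replicate 1 and WT replicate 1, had the 2 lowest cardiac sums, 48.5 and 18.0 CPM. The same libraries had the 2 highest sums of the 8 visceral endoderm markers, 10.5 and 35.9 CPM, against 8.09 to 8.70 CPM in the other 4 libraries. WT replicate 2, the next highest for *Hand1*, had a visceral endoderm sum of 8.28 CPM. That was below the 8.70 CPM of WT replicate 3, where *Hand1* was lower. Among those markers *Afp*, which encodes alpha-fetoprotein, stood at 5.55 CPM in WT replicate 1, at 0.710 CPM in Het replicate 1 and at 0.392 CPM or less in the others. *Apoa1*, *Apoa4*, *Ttr* and *Cubn* were likewise highest in WT replicate 1 and next highest in Het replicate 1. *Apob*, *Amn* and *Rbp4* were highest in WT replicate 1 too, but Het replicate 1 was not the next. *Apob* stood at 3.79 CPM in Het replicate 1, and the libraries other than WT replicate 1 ranged from 3.53 to 4.81 CPM. Of the 8, 7 were tested, with log2 fold changes below 0 (median -0.96, and 0.045 without WT replicate 1) and none at an unadjusted *P* under 0.05 in edgeR or DESeq2, and *Apoa4* was at 0 in WT replicate 3. The part of heart tissue or of these membranes in the level of *Hand1* was not tested.

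The remaining 3 genes encode homeodomain factors that give parts of the arch their identity, and all had low counts, with at most 75 reads in a library. *Gsc*, which is needed for the lower jaw and the tympanic ring, lies on chromosome 12 from 104471209 to 104473330, on the minus strand. It stood at 1.04, 1.02 and 1.14 CPM in WT and at 1.33, 0.987 and 1.02 CPM in Het, from 38 to 75 reads per library. Het over WT was 0.05 on the log2 scale (SE 0.19, edgeR adjusted *P*=0.965), with a 95% interval from 0.764-fold to 1.40-fold. Apart from Het replicate 1, which was the highest, the libraries of both genotypes lay within the range from 0.987 to 1.14 CPM.

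*Barx1*, a gene of the outer arch mesenchyme and later of the molar field and the stomach, lies on chromosome 13 from 48662998 to 48666507, on the plus strand. It stood at 0.769, 0.579 and 0.838 CPM in WT and at 0.805, 0.645 and 0.677 CPM in Het, from 28 to 49 reads. The Het libraries lay inside the WT range. On the log2 scale Het over WT was -0.03 (SE 0.23, edgeR adjusted *P*=0.982), with a 95% interval from 0.678-fold to 1.41-fold.

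*Nkx3-2*, the gene of the jaw joint and the middle ear, also known as *Bapx1*, lies on chromosome 5 from 41761483 to 41764501, on the minus strand. It stood at 0.275, 0.715 and 0.568 CPM in WT and at 0.355, 0.381 and 0.361 CPM in Het. The Het libraries were within 1.07-fold of each other, while the WT libraries spread over 2.604-fold, WT replicate 1 below and the other 2 above all Het libraries. The value of WT replicate 1 rests on 10 reads (exact Poisson 95% interval 0.132 to 0.505 CPM, for counting error only) and that of WT replicate 2 on 42 (0.515 to 0.967 CPM). The means were 0.519 ± 0.22 CPM in WT and 0.366 ± 0.014 CPM in Het (SD, *n*=3 each). The log2 fold change of -0.54 (SE 0.34) was the largest in size of the 9 and missed the threshold (edgeR adjusted *P*=0.693), with a 95% interval from 0.405-fold to 1.17-fold. Without WT replicate 1 it was -0.82 (SE 0.26, edgeR adjusted *P*=0.388), and without WT replicate 2 it was -0.20 (SE 0.37, edgeR adjusted *P*=0.871).

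The 95% intervals say how large a change these 6 libraries could have missed. They were narrowest for the components that receive and process the signal, *Ednra* and *Ece1*, and widest for *Nkx3-2*, *Hand2* and *Hand1*. An exact permutation test of the mean log2 CPM of each gene, which cannot give a *P* below 0.1 with 3 against 3 libraries, gave two-sided *P* from 0.3 to 0.9 over the 9 genes.

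**Figure D3:**
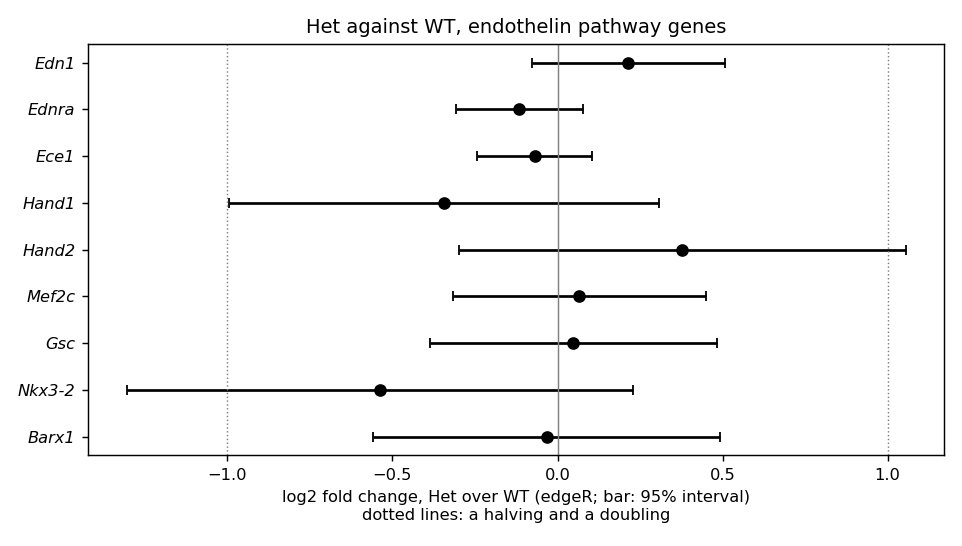
Log2 fold change (Het over WT, edgeR) of each of the 9 genes with its 95% interval, with dotted lines at a log2 fold change of -1 and 1. All 9 intervals include 0, and those of *Nkx3-2* and *Hand2* are the only ones that cross a dotted line.

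Levels were compared between the 9 genes after division by the merged exon length of each gene, as CPM per kilobase over all 6 libraries. The converting enzyme *Ece1* came first, at 19.5 ± 1.52 (SD, *n*=6), above 82.3% of 14981 tested genes with a known length. The receptor and the ligand followed at nearly equal levels, *Ednra* at 3.85 ± 0.35 and *Edn1* at 3.71 ± 0.50. *Mef2c*, at 3.31 ± 0.48, overlapped with both. *Hand2* stood at 1.84 ± 0.55 and *Gsc* at 0.859 ± 0.10, and their ranges met. *Hand1* (0.531 ± 0.15), *Barx1* (0.514 ± 0.072) and *Nkx3-2* (0.258 ± 0.096) were the lowest, each overlapping with the next, and *Nkx3-2* was above 13.3% of tested genes. Ranges of neighbours in this order were apart in 2 places, between *Ece1* and *Ednra* and between *Gsc* and *Hand1*. The order of *Mef2c*, *Ednra* and *Edn1* depends on the length used, since for *Mef2c* the merged exons span 15715 bases and the longest transcript 6277, and for *Ednra* 5476 and 3625. With the longest transcript, an alternative chosen after seeing the data, *Mef2c* stood at 8.28 per kilobase and came second, before *Ednra* at 5.81, whose range then lay above that of *Edn1*.

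**Figure D4:**
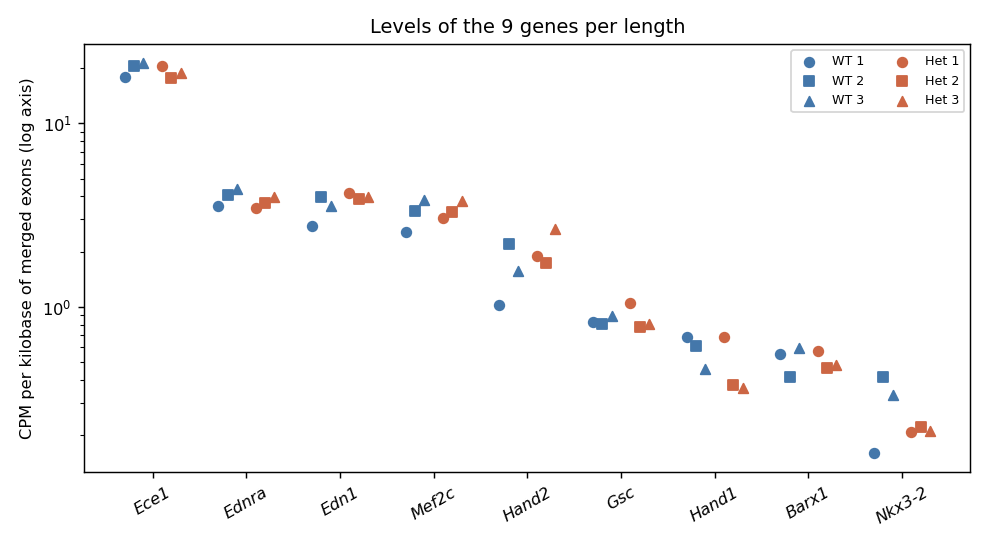
CPM per kilobase of merged exons (log axis) of the 9 genes, ordered by their mean, with WT libraries in blue and Het libraries in orange and the replicate number as marker shape. *Ece1* is above all others in every library, and *Ednra*, *Edn1* and *Mef2c* cover overlapping ranges.

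The genes differed in how far the libraries of 1 genotype spread beyond counting error. The chi-square per degree of freedom within the groups had a median of 3.44 over all tested genes. It was 54.2 for *Mef2c*, 31.4 for *Ece1* and 19.8 for *Hand2*, and it was 0.878 for *Barx1* and 0.869 for *Gsc*, whose libraries differed no more than counts of that size do. Because the measure grows with depth, the SD of log2 CPM over the 6 libraries was also ranked among the 1000 genes nearest in level. *Mef2c* was then above 96.3% and *Hand2* above 95.4% of genes of their level, *Ece1*, whose libraries spread least in fold, above 86.4%, while *Gsc* was above 9.9% and *Barx1* above 14.1%. *Edn1* was above 81.7% and *Ednra* above 77.2%. *Hand1*, with at most 72 reads in a library, was above 82.7%, and *Nkx3-2*, with at most 42, above 69.5%. *Hand2* and *Mef2c* are also genes of heart and vessels, and *Gsc* and *Barx1* had at most 75 reads in a library. The cause of these differences in spread was not tested.

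WT replicate 1 was the lowest library for 4 of the 9 genes (*Edn1*, *Mef2c*, *Hand2* and *Nkx3-2*), where it was the lowest for 24.6% of all tested genes. WT replicate 3 was the highest for 4 (*Ednra*, *Ece1*, *Mef2c* and *Barx1*) and Het replicate 1 for 3 (*Edn1*, *Hand1* and *Gsc*). The share of all tested genes highest in each library was not computed, so that these counts cannot be judged against it. No library was high or low for the whole set.

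Likeness of pattern was measured as the SD over the 6 libraries of the log2 ratio of 2 genes, which is 0 for genes that keep a fixed ratio. Among the 9, receptor and converting enzyme were the closest pair (0.114), followed by *Ece1* and *Gsc* (0.131), *Ednra* and *Mef2c* (0.146) and *Gsc* and *Barx1* (0.150). Ligand and target, *Edn1* and *Hand2*, were farther apart (0.297). Pairs of evenly expressed genes have a small value by construction. Over all tested genes, the closest to *Hand2* were *Epha2* (0.095), *Agpat9* (0.108) and *Glt28d2* (0.124). Close to *Nkx3-2* were *Slc22a3* (0.159), *Padi3* (0.192) and *Gm13139* (0.211), and to *Hand1* *Zfp36l3* (0.131) and *Dydc2* (0.163). These likenesses were taken over 15583 genes and 6 libraries and were not tested.

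The rest of the endothelin pathway was taken from a list of 16 other genes for ligands, receptors, proteases, G proteins and phospholipases. Of these, 15 were tested, and edgeR and DESeq2 called 0 at an adjusted *P* under 0.05. DESeq2 gave no adjusted *P* for 2 of the 16. At an unadjusted *P* under 0.05 both tools had 0 higher and 2 lower, against 4.09% of all tested genes lower in edgeR, and the median log2 fold change was -0.02. The first was *Plcb1*, a phospholipase C that acts below Gq. It stood at 10.8, 9.66 and 12.0 CPM in WT and at 6.94, 8.55 and 8.95 CPM in Het, with every Het library below every WT library. Its log2 fold change was -0.40 (SE 0.12, edgeR adjusted *P*=0.437).

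The other was *Ednrb*, the endothelin receptor type B of migrating neural crest cells and melanoblasts. It stood at 20.98, 23.6 and 25.4 CPM in WT and at 19.9, 20.5 and 20.4 CPM in Het. The Het libraries lay together just below the lowest WT library, WT replicate 1. Its log2 fold change was -0.20 (SE 0.07, edgeR adjusted *P*=0.50), and without WT replicate 1 it was -0.28 (SE 0.06, edgeR adjusted *P*=0.263). *Plcb3*, a further phospholipase, was the third of the list with all Het libraries below all WT libraries, where 6.92% of all tested genes were so arranged. It stood at 55.2, 53.8 and 53.3 CPM in WT and at 51.4, 50.3 and 51.6 CPM in Het (log2 fold change -0.08, edgeR adjusted *P*=0.647). The other phospholipases of the list, *Plcb4* and *Plcb2*, had log2 fold changes above 0. These were 0.08 (SE 0.06, edgeR adjusted *P*=0.737) and 0.03 (SE 0.41, edgeR adjusted *P*=0.993), with overlapping groups.

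The genes of the list with the most counts encode subunits of G proteins. *Gnai3* stood between 313 and 342 CPM in all libraries (log2 fold change -0.02, edgeR adjusted *P*=0.909) and *Gna13* between 104 and 110 CPM (log2 fold change 0.00017). For the Gq and G11 genes, *Gnaq* and *Gna11*, the log2 fold changes were -0.06 and -0.10 (edgeR adjusted *P*=0.793 and 0.634), with overlapping groups. *Kel*, a zinc protease of red cells that can cut endothelin precursors, had the largest log2 fold change after *Plcb1*, -0.22 (SE 0.32, edgeR adjusted *P*=0.885), which was 0.12 without WT replicate 1. The ligand gene *Edn2* was not tested, with reads in Het replicate 2 only.

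*Dlx5* and *Dlx6*, the homeobox genes between receptor and *Hand2*, did not pass the test, and their groups overlapped. *Dlx5* stood at 5.71, 4.48 and 6.22 CPM in WT and at 4.41, 5.16 and 6.30 CPM in Het (log2 fold change -0.04, SE 0.17, edgeR adjusted *P*=0.970). *Dlx6* stood at 4.202, 2.79 and 5.05 CPM in WT and at 3.81, 4.18 and 4.00 CPM in Het (log2 fold change 0.01, SE 0.20, edgeR adjusted *P*=0.995). WT replicate 2 was the lowest library for *Dlx6*, although it was the next to highest for *Hand2*.

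Of 13 lower jaw and distal arch genes, *Dlx5* and *Dlx6* included, 12 were tested and 0 passed in edgeR or DESeq2, adjusted or at an unadjusted *P* under 0.05. Their log2 fold changes were below 0 in 10 and above 0 in 2, with a median of -0.15. Without WT replicate 1, 7 of the 12 were below 0 and the median was -0.04. *Alx4*, a homeobox gene of the frontonasal and distal arch mesenchyme, had the largest value, -0.50 (SE 0.28, edgeR adjusted *P*=0.681). It stood at 44.0, 21.6 and 32.9 CPM in WT and at 19.9, 24.2 and 25.1 CPM in Het. WT replicate 1 was the highest library here, and without it the value was -0.23. *Dlk1*, which encodes a membrane protein of the Notch ligand family, went the same way, with 62.6 CPM in WT replicate 1 and between 34.8 and 46.3 CPM in the others, and its log2 fold change of -0.23 was 0.0064 without that library.

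All 8 upper jaw and proximal arch genes were tested, 4 above and 4 below 0, with a median of 0.002, and 1 above and 7 below 0 (median -0.036) without WT replicate 1. *Jag1*, the Notch ligand of the upper part of the arch that endothelin signaling is known to hold down, was the single gene at an unadjusted *P* under 0.05 in both tools. It stood at 152, 153 and 147 CPM in WT and at 164, 159 and 163 CPM in Het, all Het libraries above all WT libraries (8.32% of all tested genes). Its log2 fold change was 0.11 (SE 0.04, edgeR adjusted *P*=0.484), and it was the same to 2 decimals without WT replicate 1. Whole heads do not show which cells these reads came from, and a link to endothelin signaling was not tested. *Hey1* of the same list was at -0.02 (SE 0.09, edgeR adjusted *P*=0.974), and at -0.12 without WT replicate 1. *Pou3f3*, which also has a large role in the brain, had the largest value, -0.53 (SE 0.35, edgeR adjusted *P*=0.725), and it rested on WT replicate 1, at 21.04 CPM against 8.52 to 10.8 CPM in the others. Without it the value was -0.07. The brain marker sum was also highest in WT replicate 1, at 504 CPM against 406 to 449 CPM. *Nr2f1* stood between 70.5 and 85.9 CPM (edgeR adjusted *P*=0.912).

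Of the 4 arch signals and pharyngeal regulators, 0 passed in edgeR, adjusted or not, and 0 passed adjusted in DESeq2, which had *Tbx1* higher at an unadjusted *P* under 0.05. *Tbx1*, a regulator of pharyngeal endoderm and mesoderm, stood at 7.55, 15.2 and 12.9 CPM in WT and at 15.7, 14.4 and 17.8 CPM in Het. Its log2 fold change was 0.41 (SE 0.25, edgeR adjusted *P*=0.693), and 0.17 without WT replicate 1. That library was lowest for *Tbx1*, for *Edn1* and for the summed endoderm markers. *Fgf8*, a growth factor of the arch ectoderm, stood between 8.31 and 12.1 CPM (log2 fold change -0.10, edgeR adjusted *P*=0.870, and -0.0020 without WT replicate 1). In somewhat older embryos the study also saw *Fgf8* in the frontonasal prominence and where midbrain and hindbrain meet, so its level is not that of the arch alone. *Shh*, secreted by the pharyngeal endoderm and the floor of the brain, stood between 11.9 and 13.97 CPM (log2 fold change -0.09, edgeR adjusted *P*=0.800, and -0.12 without WT replicate 1).

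**Figure D5:**
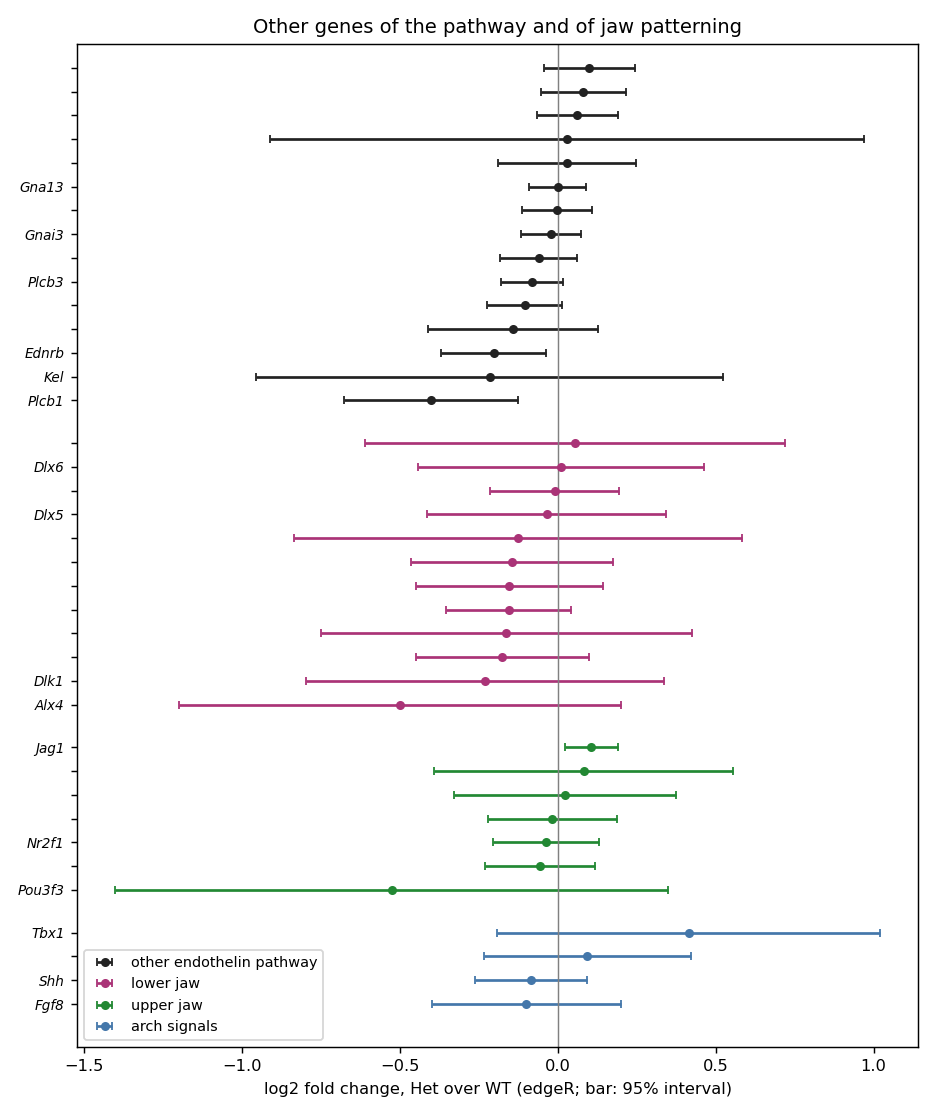
Log2 fold change (Het over WT, edgeR) with 95% interval of 38 of the 39 tested genes of the 4 lists, coloured by list, with names at most of the genes described in the text. The intervals of *Plcb1* and *Ednrb* lie below 0 and that of *Jag1* above 0, and the other 35 include 0.

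In all 4 lists, 39 of 41 genes were tested. With edgeR 0 passed the adjusted threshold, while 1 higher and 2 lower had an unadjusted *P* under 0.05 (4.34% and 4.09% of all tested genes). With DESeq2 0 of 41 passed adjusted, with 2 higher and 2 lower unadjusted, where 5.19% of all its genes had an unadjusted *P* under 0.05 in either direction. DESeq2 gave no adjusted *P* for 3 of the 41.

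Of the 9 genes, 3 overlap in their exons with an antisense transcript of the later Gencode M21 annotation, *Edn1* with *Gm47118*, *Ednra* with *4933431K23Rik* and *Hand2* with *Hand2os1*. None of the transcripts has a row of its own in the count table. The libraries are stranded, but the strand setting used for counting is not given in the sources used here, so reads of these transcripts may be among those of the 3 genes.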

How the data were processed

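RNA of 6 libraries of E9.0 mouse heads (3 WT, 3 *Snrpb* ncc+/-, 2 heads each) was sequenced from stranded total RNA libraries after removal of ribosomal RNA. The authors used STAR on mm10 with the Gencode M2 annotation and deposited raw counts per gene symbol, without normalization. The labels name Trim Galore and featureCounts, and the methods of the study name CutAdapt and HTSeq. All 6 columns were used.

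Genes kept by filterByExpr (15584 of 24421) entered the test of edgeR (version 4.0.16, in R version 4.3.3) after TMM, with robust quasi-likelihood dispersions, genotype alone as design, a two-sided test and Benjamini-Hochberg adjustment over all tested genes at a threshold of 0.05. The fold changes carry standard errors on the log2 scale. Alternatives were DESeq2 (version 1.42.0), its size factors, library size alone, no filter, a minimum of 10 counts in each library, a replicate block and each library left out in turn. Log2 CPM used a prior count of 2. Scripts were tested on counts with known changes. Positions and lengths come from Gencode M21 and promoter windows from RefSeq, and figures were drawn with matplotlib (version 3.10.9).

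The genes named were the 9, *Dlx5*, *Dlx6*, *Snrpb*, 8 cell type markers, and, in each of 4 lists, genes at an unadjusted *P* under 0.05 or with groups that do not overlap, the 2 with the highest CPM and the 2 with the largest fold change. *Meox2*, *Pax3*, *Crabp1*, *Ets1*, *Edn2*, *Plcb2*, *Plcb4*, *Gnaq*, *Gna11*, *Hey1* and the ectoderm, endoderm and visceral endoderm markers by name were added after their values were seen. Some genes that the rule names are not reported here. The 9 genes, lists and rules were chosen with earlier results of these data known. Depth was 36378803 to 74909774 counts per library, so that the spread between pools (common biological coefficient of variation 0.087) set the precision of all but the lowest genes.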

Additional observations from a re-analysis of the deposited data

How the results depend on the processing

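Over 12 alternatives for 5 of the 9 genes and 11 for *Hand1*, *Gsc*, *Nkx3-2* and *Barx1*, to which DESeq2 gave no adjusted *P*, none passed at an adjusted *P* under 0.05, and the lowest adjusted *P* was 0.380. Other scalings, filters, the other tool and the replicate block turned no direction. Leaving out 1 library gave ranges of the log2 fold change of 0.08 to 0.34 for *Edn1*, -0.19 to -0.05 for *Ednra*, -0.14 to -0.02 for *Ece1*, 0.14 to 0.70 for *Hand2*, -0.67 to -0.19 for *Hand1* and -0.82 to -0.20 for *Nkx3-2*. Values near 0 turned sign: *Mef2c* (-0.08 to 0.20, below 0 without WT replicate 1, at -0.079, or Het replicate 3, at -0.027), *Gsc* (-0.08 to 0.13, at -0.084 without Het replicate 1), *Barx1* (-0.19 to 0.08, above 0 without WT replicate 1, at 0.011, WT replicate 3, at 0.080, or Het replicate 2, at 0.031), *Dlx5* (-0.19 to 0.07, above 0 without WT replicate 1, at 0.00097, WT replicate 3, at 0.065, or Het replicate 1, at 0.073) and *Dlx6* (-0.21 to 0.21, below 0 without WT replicate 2, at -0.21, or Het replicate 2, at -0.029). At an unadjusted *P* under 0.05, *Ednra* and *Nkx3-2* were lower without WT replicate 1 (10% of all genes), *Edn1* and *Hand2* higher without WT replicate 2 (0.34 and 0.70, 11.4%) and *Hand1* lower without Het replicate 1 (7.12%). The cause was not tested.

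Over the whole table, edgeR called 1 gene higher and 0 lower, DESeq2 56 and 28, and edgeR without a filter 9 and 2. Without 1 library it called between 0 and 6 genes higher, 6 without WT replicate 1, 5 without Het replicate 1 and 0 without each of the others. Medians of marker lists were moved by single libraries: without WT replicate 1 the visceral endoderm list went from -0.96 to 0.045, the brain list from -0.12 to 0.0078, the erythroid list from -0.08 to 0.075, the endoderm list from 0.19 to -0.041, the ectoderm list from 0.045 to -0.0089 and the neural crest list from 0.089 to -0.019. The median of the 9 genes lay between -0.084 and 0.080. The median of the somite list turned from -0.32 to 0.077 without WT replicate 2, and leaving out 1 library gave a range for it of -0.51 to 0.077. With the longest transcript in place of merged exons, *Ece1* stood at 21.4, *Mef2c* at 8.28 and *Ednra* at 5.81 CPM per kilobase. The labels do not say whether replicate numbers pair the libraries. Deviations of WT and Het libraries of the same number correlated at 0.169, 0.032 and 0.360, and those of different numbers between -0.245 and 0.088. WT replicate 2 went slightly better with Het replicate 1 (0.039). A shared origin of libraries of the same number was not tested. With the replicate block, *Hand2* was at 0.40, *Nkx3-2* at -0.52 and *Edn1* at 0.23, and the whole table again had 1 call. The low counts of *Nkx3-2*, *Barx1*, *Gsc* and *Hand1* limit what can be seen in them.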

Other observations

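The 8 somite and trunk mesoderm markers summed to 47.2, 51.3 and 43.7 CPM in WT and to 42.9, 39.7 and 40.6 CPM in Het. Most of each sum was *Pax3*, a gene also of the dorsal neural tube and neural crest, at 39.3, 32.0 and 30.8 CPM in WT and at 32.7, 29.1 and 27.5 CPM in Het, and the sums of the other 7, a split made after seeing the data, overlapped, at 7.97, 19.3 and 12.9 CPM in WT and 10.2, 10.6 and 13.1 CPM in Het. Of the 8, 0 passed the adjusted threshold in edgeR or DESeq2, while 1, *Meox2*, was lower at an unadjusted *P* under 0.05 in edgeR (log2 fold change -0.61, adjusted *P*=0.53) and 0 in DESeq2. DESeq2 gave no adjusted *P* for 5 of the 8. *Meox1*, a gene of the forming somite, stood at 1.35, 9.78 and 4.46 CPM in WT and at 2.77, 3.24 and 5.55 CPM in Het. The 7 brain markers, all tested, had log2 fold changes below 0 (median -0.12), and so did the 7 tested primitive erythroid genes (median -0.08), with 0 at an unadjusted *P* under 0.05 in edgeR or DESeq2. Without WT replicate 1 these medians were 0.0078 and 0.075. The erythroid sum was highest in WT replicate 1, at 1494 CPM, and between 880 and 1215 CPM in the others. *Cdh5* stood between 35.1 and 42.9 CPM and *Pecam1*, a further adhesion molecule of endothelial cells, between 18.2 and 21.6 CPM, with adjusted *P* of 0.675 and 0.906 (edgeR). *Hoxb9* had no read in WT and at most 0.039 CPM in Het.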
